A study of Mus musculus with 12 samples.

Results

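The bone and fibrous matrix genes are 34 genes that make, modify or regulate the collagen-rich matrix of bone and fibrous connective tissue. They were found by symbol in gene tables of 56691 rows, and each symbol stood on 1 row. Their levels were read in palatal shelves, the tissue folds on either side of the embryonic mouth that fuse into the palate, taken from mice on gestational day 12. There were 4 groups of 3 libraries: Dnmt1 conditional knockout embryos left untreated, wild type embryos given 5-aza-2'-deoxycytidine (AzadC, a cytosine analogue that traps DNA methyltransferases), wild type embryos given its vehicle, and untreated wild type controls. Each library was a pool of 2 embryos of the same genotype, so a group stands for 6 embryos. Embryos of a genotype came from at least 3 litters with no more than 3 embryos a litter, so libraries of a group can share litters. The Cre driver, the age and strain of the dams, and the dose and time of AzadC are not stated, and the p-values measure the spread between pooled libraries.

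Bone of the face forms largely without a cartilage template: neural crest mesenchyme condenses, the transcription factor Runx2 commits cells to the osteoblast lineage, Sp7 acts after it, and the cells lay down type I collagen that is later mineralized. Fibrous mesenchyme uses many of the same collagens and adds periostin, small leucine-rich proteoglycans and microfibril proteins. Dnmt1 copies methylation onto new DNA strands at CpG sites, where a cytosine precedes a guanine. The palatal shelves at this stage are soft outgrowths, and ossification of the palate comes later.

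Dnmt1, the targeted gene, had 201, 179.6 and 191 CPM in the knockout libraries, 408, 482 and 411 in AzadC, 452, 451 and 448 in vehicle and 286, 278 and 258 in control. It was lowest in the knockout libraries, and it also differed between vehicle and control (log2 change 0.72, edgeR adjusted p = 0.000286), with the vehicle libraries higher. Gene totals ran from 12640536 to 33113790 expected counts per library. Levels within a gene are given as CPM (expected counts scaled to a common library size), and levels between genes as TPM, which also divides by gene length. All 10 palatal mesenchyme markers passed the count filter and summed to 844 to 1322 CPM in the knockout libraries, 1024 to 1154 in AzadC, 857 to 1068 in vehicle and 1193 to 1623 in control. All vehicle sums lay below all control sums (median log2 change of the 10 markers -0.63, with 1 higher and 0 lower by edgeR). In knockout against control 3 of the 10 markers were lower (Foxf2, Meox2 and Twist1) and 0 higher by edgeR (median -0.25). In knockout against vehicle 2 were lower (Foxf2 and Twist1) and 0 higher (median 0.31). The part of these markers in the members' levels was not tested. Of the 34 members 29 passed the count filter. The other 5 (Bglap, Bglap2, Dmp1, Phospho1 and Mepe) had too few reads to be tested. Among the tested members control 2 was the highest control library for 20 of 29 and vehicle 1 the lowest vehicle library for 21 of 29, against 30.7% and 38.7% of all tested genes.

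Measured per length, the members spanned a wide range. The collagen chaperone Serpinh1 (HSP47) had 832 ± 66.8 TPM in the knockout and 779 ± 101 TPM in the control libraries (SD, n = 3 each). Col3a1 and Col1a2, chains of the fibril-forming collagens III and I, followed with 503 ± 28.8 and 484 ± 26.8 TPM in the knockout and 698 ± 104 and 661 ± 67.0 TPM in the control group. Next in the median over the 12 libraries stood Sparc (osteonectin, which binds collagen and calcium, 344 to 462 TPM) and Postn (periostin, 107 to 666 TPM). Neighbours in this order overlapped over the 12 libraries. Further down, Runx2 had a median of 22.5 TPM and Sp7 of 4.32 TPM over the 12 libraries. Several genes of late bone cells were low: osteocalcin (Bglap) had at most 3.94 TPM, and Dmp1, a matrix protein of osteocytes, at most 0.330 TPM. Mepe, another osteocyte protein, had 0 counts in every library, which allows up to 0.0894 to 0.236 CPM per library (3 counts, for counting error only).

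**Figure D1:**
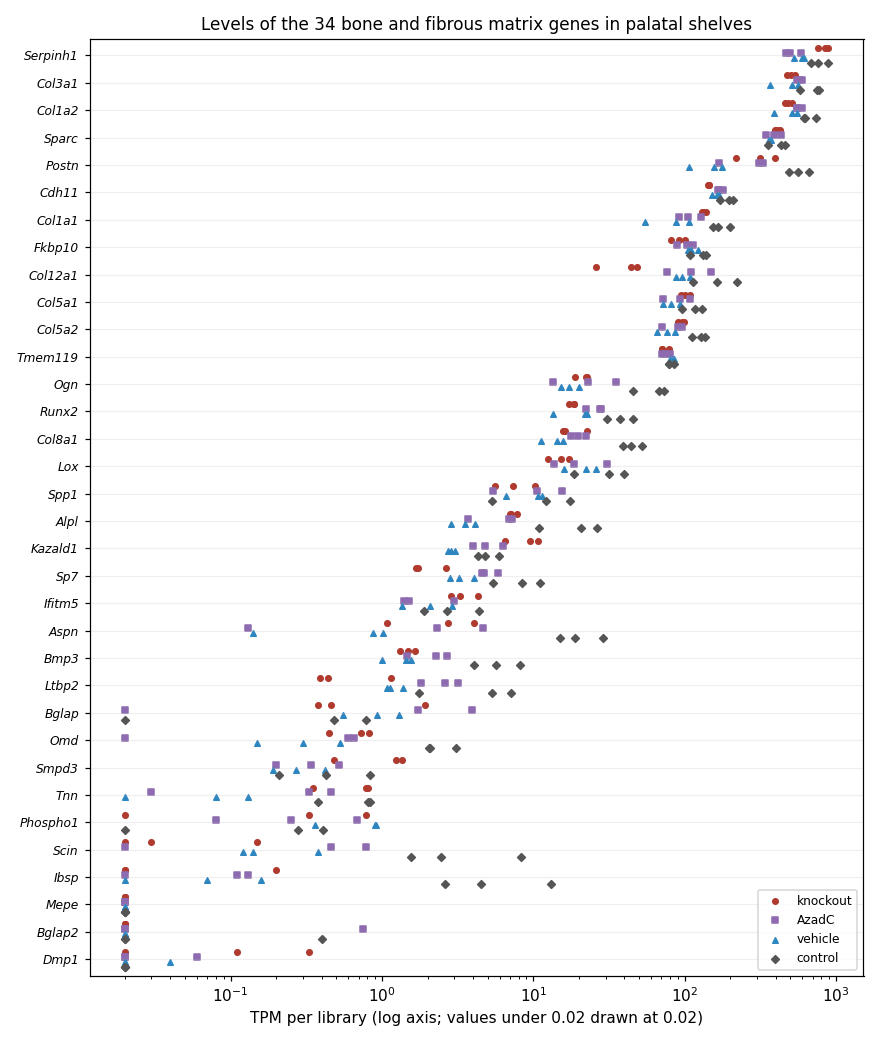
TPM of each of the 34 members in every library on a log axis, ordered by the median over the 12 libraries, with knockout, AzadC, vehicle and control points from top to bottom in each row. Serpinh1, Col1a2, Col3a1 and Sparc stand at the top, and Mepe, Bglap2 and Dmp1 lie at or near 0.

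Against the untreated control, bone and fibrous matrix genes were mostly lower in the knockout. Of 29 tested members 15 fell (edgeR quasi-likelihood test, Benjamini-Hochberg adjusted p below 0.05 over 17335 genes), where 6.43% of all tested genes fell. A single member, Kazald1, rose, where 7.83% of all tested genes rose. Because the members were chosen with earlier results of these data known, their shares beside all tested genes are a description. The median log2 change of the tested members was -0.53, beside 0.00 for all tested genes. All 3 knockout libraries lay below all 3 control libraries for 19 members (15.1% of all tested genes). Without Ibsp, which passed the count filter through the control group alone, 14 of 28 fell and the median was -0.46. In these bulk samples fewer cells of a type and less RNA per cell cannot be told apart.

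Against the vehicle group, which is also wild type, the balance lay the other way: 6 members rose (6.7% of all tested genes) and 2 fell (4.13%), with a median log2 change of 0.22. These counts rest on single libraries: 2 rose without knockout 2 or without vehicle 3, 3 rose without knockout 3 or without vehicle 1, and 1 fell when any of the 6 libraries was left out. The knockout libraries lay above all 3 vehicle libraries for 13 members (16.0% of all tested genes) and below all of them for 3 (14.4%). The vehicle libraries themselves differed from the control libraries: 16 members were lower in vehicle (2.06% of all tested genes), 0 were higher (1.46%), and the median was -0.81. For 21 members all vehicle libraries lay below all control libraries (11.5% of all tested genes). The count of lower members was 9 without control 2 or without vehicle 3, 10 without vehicle 1 and 15 of 28 without Ibsp. By DESeq2 19 members were lower and 0 higher there, and no member was higher at an unadjusted p below 0.05. These comparisons share libraries, so their counts are not independent of each other. The labels do not say whether vehicle and control embryos were collected or sequenced together, so treatment and any such batch cannot be told apart.

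The knockout libraries were also set against both wild type groups at once. All 3 lay below all 6 vehicle and control libraries for 3 members, Col12a1, Ltbp2 and Sp7. That is 10.3% of the 29 tested members, beside 6.66% of all tested genes. They lay above all 6 for Kazald1 alone (3.45% of the members, beside 8.8% of all tested genes). Counts this small are given as a description. With the AzadC libraries added, so that 9 wild type libraries stood on the other side, the same members remained on each side (4.85% of all tested genes below and 7.02% above).

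**Figure D2:**
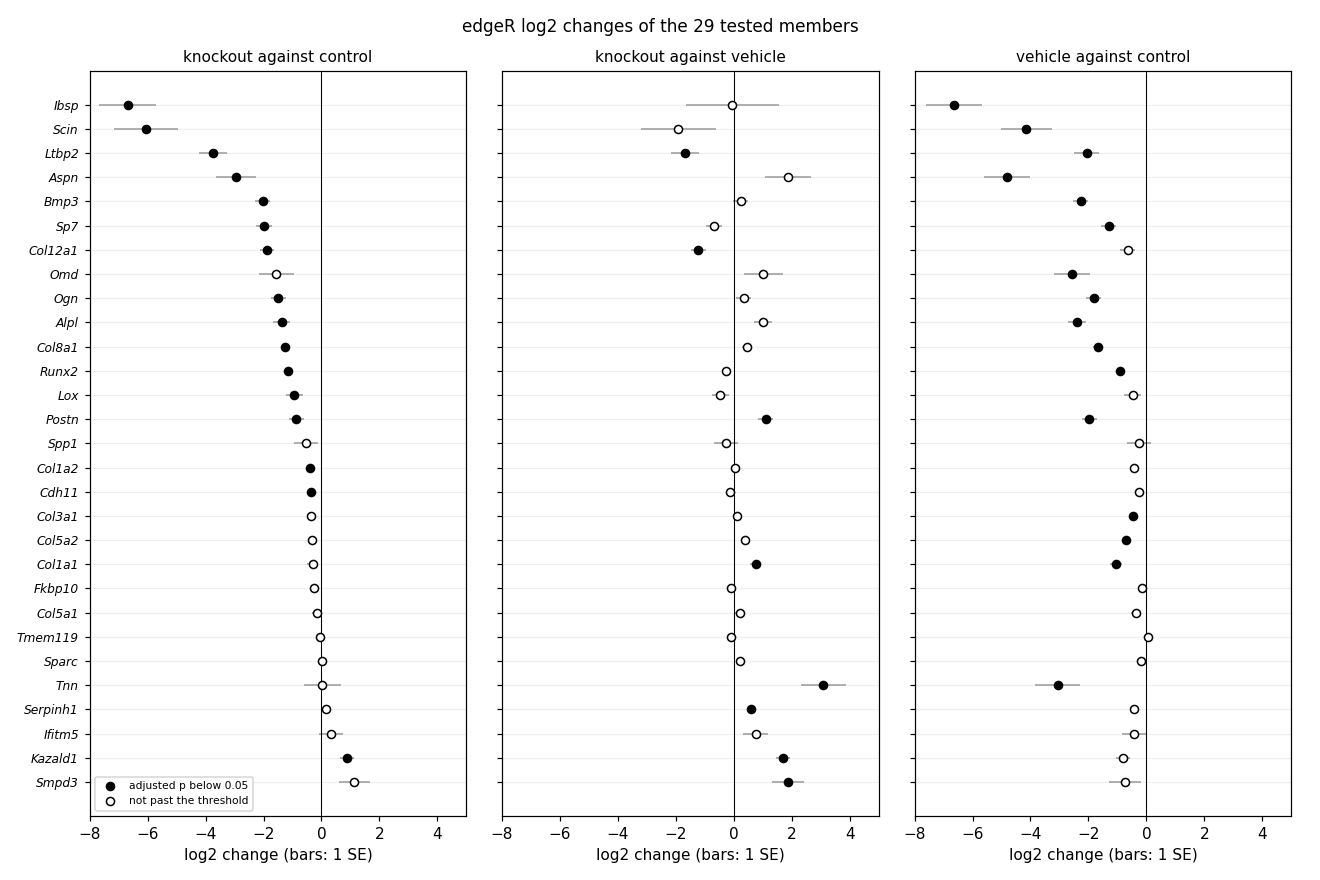
edgeR log2 changes of the 29 tested members with 1 SE, ordered by the change in knockout against control; filled points passed adjusted p below 0.05. Filled points to the left of 0 number 15 in knockout against control, 2 in knockout against vehicle and 16 in vehicle against control. The 15 and the 16 include Ibsp, which passed the count filter through the control group alone.

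The regulators of the osteoblast lineage were lower in the knockout than in control. Runx2 (chromosome 17, 44495987 to 44814797, minus strand, mm10) had 37.0, 45.3 and 52.3 CPM in the knockout libraries, 73.5, 72.9 and 84.0 in AzadC, 45.8, 55.2 and 59.8 in vehicle and 84.1, 114 and 102 in control. All knockout values lay below all control values and overlapped the vehicle values. Its change was -1.16 log2 units (0.14 SE, adjusted p = 0.000133 by edgeR) against control and -0.26 log2 units (0.14 SE, adjusted p = 0.27 by edgeR) against vehicle. Antisense genes and Supt3 overlap Runx2 and no source states the strand setting of the counting, so its level is uncertain to that extent. Other members also overlap a gene on the other strand, and the same limit holds for them. Among them are Aspn, Ogn, Omd, Smpd3, Fkbp10, Ltbp2, Lox and Col12a1. Sp7 (osterix, which acts after Runx2) had 3.06, 3.10 and 4.74 CPM in the knockout libraries, 7.88, 8.30 and 10.1 in AzadC, 4.76, 5.69 and 6.86 in vehicle and 14.8, 19.0 and 9.07 in control. It fell against control, with a change of -1.98 log2 units (0.27 SE, adjusted p = 0.000329 by edgeR). Against vehicle every knockout library was lower, but the highest knockout and lowest vehicle values all but touched and the change did not pass (-0.68 log2 units, 0.27 SE, adjusted p = 0.131 by edgeR). Bmp3, a member of the BMP family that opposes bone-forming BMPs, had 5.39, 4.87 and 6.87 CPM in the knockout libraries, 9.30, 5.69 and 9.78 in AzadC, 4.02, 5.14 and 5.20 in vehicle and 16.5, 22.4 and 31.0 in control. Its change against control was -2.03 log2 units (0.25 SE, adjusted p = 0.000187 by edgeR), and the knockout and vehicle values overlapped (0.24 log2 units, 0.26 SE, adjusted p = 0.622 by edgeR). In vehicle against control the changes were -0.90 log2 units (0.14 SE, adjusted p = 0.00577 by edgeR) for Runx2, -1.3 log2 units (0.26 SE, adjusted p = 0.0178 by edgeR) for Sp7 and -2.27 log2 units (0.25 SE, adjusted p = 0.000769 by edgeR) for Bmp3. The Sp7 call in that comparison was lost without control 2, vehicle 1 or vehicle 3 (adjusted p up to 0.0856).

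Alpl, Smpd3, Ifitm5 and Phospho1 act in or accompany mineralization. Alpl encodes tissue-nonspecific alkaline phosphatase, which frees phosphate for mineral. Alpl had 10.5, 9.99 and 10.3 CPM in the knockout libraries, 10.6, 5.57 and 10.1 in AzadC, 4.15, 5.98 and 5.08 in vehicle and 14.6, 37.0 and 28.5 in control. The knockout values lay between the vehicle and the control values without overlap. The change was -1.38 log2 units (0.29 SE, adjusted p = 0.00749 by edgeR) against control and 1.01 log2 units (0.31 SE, adjusted p = 0.053 by edgeR) against vehicle, the second missing the threshold. Vehicle against control gave -2.38 log2 units (0.31 SE, adjusted p = 0.0021 by edgeR). Smpd3, a neutral sphingomyelinase needed for bone mineralization in mice, had 3.84, 4.38 and 1.54 CPM in the knockout libraries, 0.630, 0.666 and 1.64 in AzadC, 1.3, 0.611 and 0.847 in vehicle and 1.22, 2.57 and 0.628 in control. It was higher in the knockout than in vehicle (1.86 log2 units, 0.56 SE, adjusted p = 0.0484 by edgeR), a call lost without vehicle 1, 2 or 3 or knockout 1 or 2 (adjusted p up to 0.179) and with the replicate number as a block (0.0826). Against control it did not pass (1.13, adjusted p = 0.184). Ifitm5, a small membrane protein largely restricted to bone-forming cells, stayed between 0.433 and 1.48 CPM in all 12 libraries and passed in no comparison. Phospho1, a phosphatase of matrix vesicles, had between 0 and 9 counts per library.

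Ibsp, bone sialoprotein, was read almost solely in the control libraries. It had 0, 0 and 4 counts in the knockout libraries, 2, 0 and 4 in AzadC, 3, 0 and 2 in vehicle and 175, 389 and 51 in control, or 5.22, 14.9 and 2.91 CPM in control. Every control library held reads of it, and the other 9 libraries held 4 or fewer each. It passed the count filter through the control group alone, so it had to be high there to be tested at all, and its fitted values are a description. The fitted change was -6.69 log2 units (0.99 SE, adjusted p = 0.000615 by edgeR) in knockout against control and -6.63 log2 units (0.96 SE, adjusted p = 0.00395 by edgeR) in vehicle against control, and -0.06 log2 units (1.60 SE, adjusted p = 0.989 by edgeR) in knockout against vehicle. With so few reads the fitted size moves with single libraries: in knockout against control it was -5.76 without control 2, -6.07 without knockout 1 and -10.46 without knockout 3. For vehicle against control it was -5.69 without control 2, -7.53 without vehicle 1 and -5.89 without vehicle 2. Spp1, osteopontin, which bone cells and macrophages both make, had 7.86, 5.66 and 4.27 CPM in the knockout libraries, 7.96, 4.24 and 11.6 in AzadC, 4.89, 8.58 and 7.94 in vehicle and 9.09, 12.9 and 3.59 in control. Its groups overlapped and it passed in no comparison. The 12 macrophage markers were all higher in the knockout, with a summed level of 327 to 367 CPM in the knockout libraries, 87.6 to 115 in vehicle and 72.8 to 103 in control; their part in the Spp1 level was not tested. Dmp1 had 4, 11 and 0 counts in the knockout libraries, 0, 0 and 3 in AzadC, 0, 2 and 0 in vehicle and 0, 1 and 0 in control. Osteocalcin (Bglap) had 6, 1 and 1 counts in the knockout libraries, 5, 4 and 0 in AzadC, 1, 4 and 3 in vehicle and 2, 2 and 0 in control. Its neighbouring near-copy Bglap2 had 2 counts in AzadC 2, 1 in control 3 and 0 elsewhere, and reads of this pair can be assigned to the wrong copy. Dmp1, Ibsp, Mepe and Spp1 lie in that order within 1 stretch of chromosome 5, from 104202613 to 104441050 (mm10).

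Of the 5 fibrillar collagen genes, Col1a2 alone fell in knockout against control, and Col1a1, Col3a1 and Col5a2 were lower in vehicle than in control. Type I collagen, the main protein of bone, is built from the chains of Col1a1 and Col1a2. Col1a1 had 509, 486 and 495 CPM in the knockout libraries, 385, 341 and 463 in AzadC, 184, 389 and 313 in vehicle and 599, 704 and 535 in control. The knockout values lay under all control values and above all AzadC and vehicle values, and its change was -0.30 log2 units (0.20 SE, adjusted p = 0.357 by edgeR) against control, not past the threshold. It rose against vehicle, with a change of 0.75 log2 units (0.20 SE, adjusted p = 0.0303 by edgeR), a call lost without knockout 1, 2 or 3 or vehicle 3 (adjusted p up to 0.0819). Vehicle was lower than control (-1.05 log2 units, 0.20 SE, adjusted p = 0.016 by edgeR), lost without control 2 or vehicle 3 (up to 0.0568). Col1a2 had 1611, 1457 and 1527 CPM in the knockout libraries, 1732, 1768 and 1848 in AzadC, 1185, 1736 and 1556 in vehicle and 1926, 2232 and 1849.8 in control. It fell against control (-0.39 log2 units, 0.11 SE, adjusted p = 0.0373 by edgeR), a call lost without control 1 or 2 or any 1 knockout library (adjusted p up to 0.15), and changed by 0.04 against vehicle (adjusted p = 0.885). Col3a1, collagen III of soft connective tissue, had 1715, 1425 and 1510.2 CPM in the knockout libraries, 1437, 1482 and 1644 in AzadC, 1169, 1639 and 1464 in vehicle and 1748, 2161 and 2000.1 in control. It passed in neither knockout comparison (-0.35 against control, adjusted p = 0.0655, and 0.12 against vehicle, 0.574). In vehicle against control it fell by -0.47 log2 units (0.12 SE, adjusted p = 0.0452 by edgeR), lost without control 2 or 3 or vehicle 1 or 3, with the replicate number as a block and in a fit of these 2 groups alone (adjusted p up to 0.159). Col5a1 and Col5a2 make collagen V, which sits in the core of collagen I fibrils. Col5a2 had 367, 407 and 397 CPM in the knockout libraries, 363, 294 and 388 in AzadC, 262, 345 and 300.0 in vehicle and 446, 538 and 494 in control. It changed by -0.34 against control and 0.37 against vehicle (adjusted p = 0.064 and 0.0552) and fell in vehicle against control, with a change of -0.70 log2 units (0.11 SE, adjusted p = 0.00753 by edgeR). Col5a1 passed in no comparison. Col3a1 and Col5a2 are close neighbours on chromosome 1.

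Both collagens of the list that do not form fibrils themselves fell in knockout against control. Col12a1 (chromosome 9, 79598991 to 79718831, minus strand), a collagen that decorates fibrils in bone, tendon and fascia, had 213, 122 and 193 CPM in the knockout libraries, 470.0, 332 and 587 in AzadC, 397, 392 and 452 in vehicle and 585, 893 and 469.5 in control. The knockout libraries stood below all 9 others, with no overlap. The change was -1.88 log2 units (0.26 SE, adjusted p = 0.000345 by edgeR) against control and -1.23 log2 units (0.25 SE, adjusted p = 0.00653 by edgeR) against vehicle, and both calls held in every alternative run. Vehicle and control did not differ past the threshold (-0.65, adjusted p = 0.168). Col8a1, a short-chain collagen of networks, had 50.7, 50.7 and 72.4 CPM in the knockout libraries, 55.6, 63.5 and 69.8 in AzadC, 34.8, 49.1 and 43.5 in vehicle and 137, 119 and 156 in control. Here the control libraries stood above all 9 others, and the change was -1.25 log2 units (0.16 SE, adjusted p = 0.000189 by edgeR) in knockout against control and -1.69 log2 units (0.16 SE, adjusted p = 0.000147 by edgeR) in vehicle against control. Against vehicle every knockout value was higher without passing (0.44 log2 units, 0.16 SE, adjusted p = 0.0981 by edgeR).

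**Figure D3:**
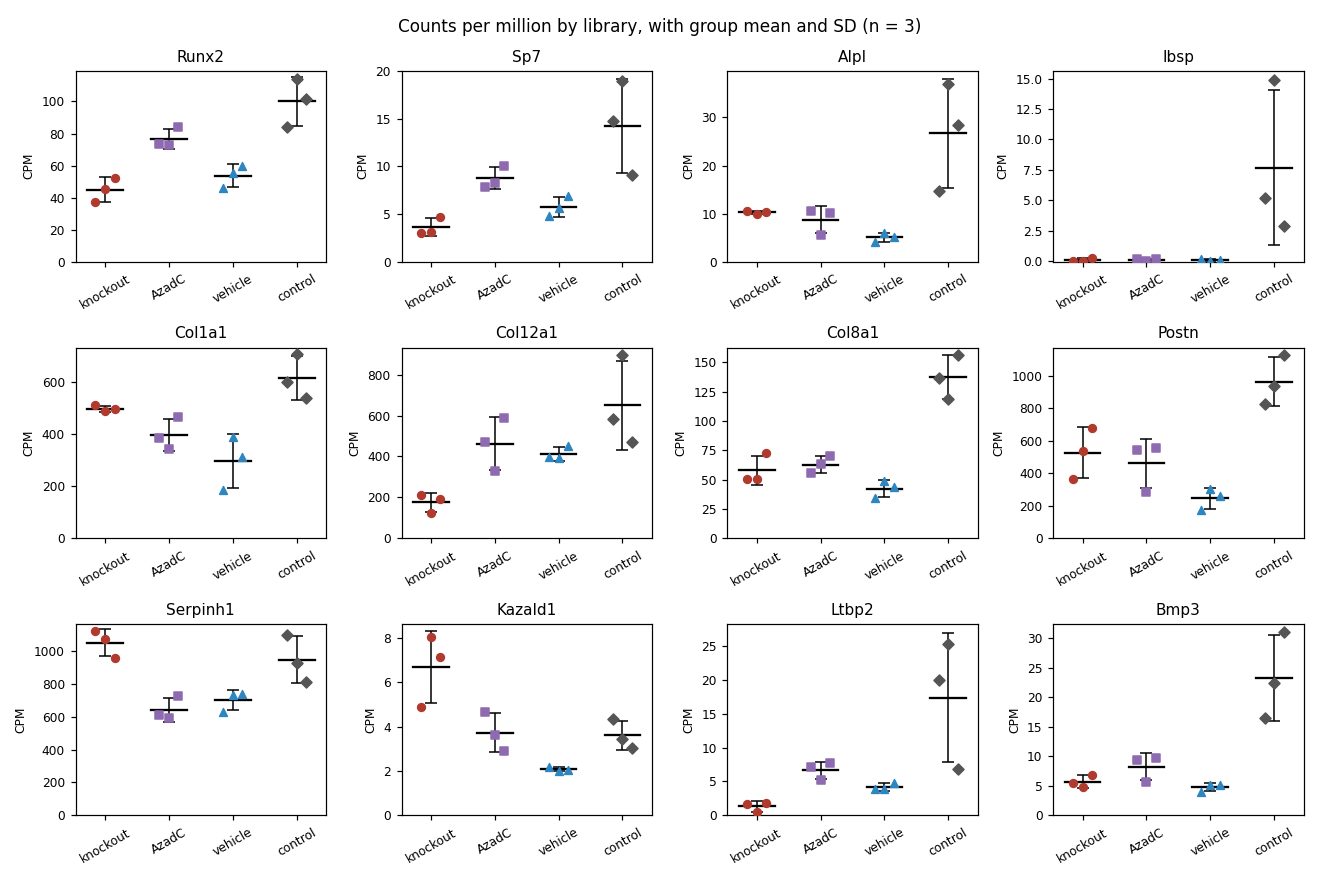
CPM of 12 members in each library, with points for the 3 libraries of a group, a bar at the mean and 1 SD. Col12a1, Ltbp2 and Sp7 are lowest in all 3 knockout libraries, and Kazald1 is highest there. Alpl, Col8a1, Bmp3, Postn, Ibsp, Col1a1 and Runx2 are highest in all 3 control libraries. For Sp7 and Runx2 the margin is narrow.

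Of the genes that help collagen fold and crosslink, Serpinh1 rose against vehicle. It had 1121, 1075 and 961 CPM in the knockout libraries, 608, 594 and 728 in AzadC, 631, 735 and 739 in vehicle and 1099, 928 and 813 in control. The knockout and control values overlapped, and both groups lay above every vehicle and AzadC library. The change was 0.58 log2 units (0.11 SE, adjusted p = 0.00461 by edgeR) against vehicle and 0.15 log2 units (0.11 SE, adjusted p = 0.415 by edgeR) against control. The first held in every alternative run, while vehicle against control missed the threshold (-0.43, adjusted p = 0.0522). Fkbp10, a folding enzyme of the endoplasmic reticulum, passed in no comparison; its expected counts were fractional in all 12 libraries, as reads assigned in part leave them. Lox, lysyl oxidase, which crosslinks collagen and elastin, had 48.2, 35.2 and 43.0 CPM in the knockout libraries, 51.1, 38.6 and 83.9 in AzadC, 43.4, 71.0 and 59.6 in vehicle and 87.1, 106 and 49.1 in control. It fell against control, with a change of -0.94 log2 units (0.29 SE, adjusted p = 0.0487 by edgeR). That call was lost by DESeq2 (adjusted p = 0.0515), with the replicate number as a block (0.0781), without any 1 knockout library and without control 1 or control 2 (up to 0.193).

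Among the proteins that lie between the fibrils, Postn, Aspn, Ogn and Omd were highest in the 3 control libraries. Postn, periostin, had 364, 541 and 679 CPM in the knockout libraries, 541, 289 and 556 in AzadC, 175, 302 and 263 in vehicle and 829, 937 and 1126 in control. The control libraries stood above all others, and the knockout libraries above all vehicle libraries. Postn fell against control, with a change of -0.87 log2 units (0.27 SE, adjusted p = 0.0448 by edgeR) and rose against vehicle, with a change of 1.10 log2 units (0.27 SE, adjusted p = 0.0187 by edgeR). The control call was lost without control 1, 2 or 3 or knockout 1 or 2 (adjusted p up to 0.149), and the vehicle call without knockout 2 or 3 or vehicle 1 or 3 (up to 0.0754). Vehicle against control gave -1.96 log2 units (0.27 SE, adjusted p = 0.00362 by edgeR). Aspn, Ogn and Omd encode small leucine-rich proteins of the matrix (asporin, osteoglycin and osteomodulin) and lie side by side on chromosome 13, from 49544443 to 49624501, within Cenpp on the other strand. Aspn had 1.46, 3.74 and 5.51 CPM in the knockout libraries, 3.07, 0.182 and 6.14 in AzadC, 0.186, 1.35 and 1.13 in vehicle and 19.8, 37.6 and 23.8 in control. Ogn had 28.5, 34.6 and 34.3 CPM in the knockout libraries, 34.4, 20.8 and 52.5 in AzadC, 29.6, 22.7 and 25.0 in vehicle and 100.4, 106 and 64.9 in control. For both genes, every control library exceeded all 9 others. Aspn changed by -2.94 log2 units (0.69 SE, adjusted p = 0.0129 by edgeR) in knockout against control, lost without control 2 or knockout 2 (up to 0.0547), and by -4.81 log2 units (0.78 SE, adjusted p = 0.00792 by edgeR) in vehicle against control. Ogn changed by -1.48 log2 units (0.26 SE, adjusted p = 0.00226 by edgeR) and -1.82 log2 units (0.26 SE, adjusted p = 0.00401 by edgeR) in the same comparisons. Neither passed against vehicle (1.87 for Aspn, adjusted p = 0.155, and 0.34 for Ogn, 0.474). Omd had 0.731, 0.541 and 0.770 CPM in the knockout libraries, 0.552, 0 and 0.501 in AzadC, 0.124, 0.386 and 0.444 in vehicle and 1.79, 2.57 and 1.65 in control. It did not pass in knockout against control (-1.56, adjusted p = 0.1), and its call in vehicle against control (-2.57 log2 units, 0.63 SE, adjusted p = 0.0403 by edgeR) was lost when any 1 of these 6 libraries was left out and with the replicate number as a block (up to 0.147). Sparc had 546, 507 and 518 CPM in the knockout libraries, 488, 444 and 547 in AzadC, 446, 449.8 and 456 in vehicle and 579.8, 526 and 428 in control, a narrow range, and passed in no comparison.

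Tnn and Ltbp2 were scarce and moved in different ways. Tnn, tenascin-N, a matrix protein of bone surfaces and periosteum, had 1.28, 2.85 and 2.96 CPM in the knockout libraries, 1.65, 0.121 and 1.17 in AzadC, 0, 0.450 and 0.282 in vehicle and 1.34, 2.87 and 2.74 in control. The knockout and control values overlapped and both groups lay above all vehicle values. It rose against vehicle, with a change of 3.09 log2 units (0.78 SE, adjusted p = 0.0215 by edgeR), a call lost without knockout 2 or 3 or vehicle 1 or 3 (adjusted p up to 0.0808), and stood at 3.81 without vehicle 2. Vehicle was lower than control (-3.05 log2 units, 0.77 SE, adjusted p = 0.0479 by edgeR). That call was lost without control 2 or 3, without any 1 vehicle library (-3.77 without vehicle 2) and with the replicate number as a block (up to 0.142). Ltbp2, a microfibril-associated protein related to those that hold latent TGF-beta, had 1.74, 0.443 and 1.78 CPM in the knockout libraries, 7.09, 5.21 and 7.68 in AzadC, 3.90, 3.86 and 4.84 in vehicle and 20.1, 25.3 and 6.85 in control. The knockout libraries stood below the other 9. Its fall against control (-3.73 log2 units, 0.49 SE, adjusted p = 0.000264 by edgeR) held in every alternative run. Its fall against vehicle (-1.68 log2 units, 0.49 SE, adjusted p = 0.0425 by edgeR) was lost when any 1 of the 6 libraries was left out and with the replicate number as a block (up to 0.153). Vehicle against control gave -2.06 log2 units (0.43 SE, adjusted p = 0.023 by edgeR), lost without control 2 or any 1 vehicle library (up to 0.0938).

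The remaining members are proteins of the cell surface, the cytoskeleton or the secreted space. Cdh11, the cadherin of mesenchyme and osteoblasts, had 453, 458 and 487 CPM in the knockout libraries, 542, 546 and 573 in AzadC, 480.2, 514 and 526 in vehicle and 545, 634 and 634 in control. It fell against control, with a change of -0.37 log2 units (0.07 SE, adjusted p = 0.00265 by edgeR) and did not pass against vehicle (-0.12, adjusted p = 0.298). Kazald1, a secreted protein with a Kazal-type domain found in bone-forming regions, had 4.89, 8.02 and 7.11 CPM in the knockout libraries, 4.65, 3.63 and 2.91 in AzadC, 2.17, 1.99 and 2.06 in vehicle and 4.32, 3.45 and 3.02 in control. Its knockout libraries stood above all 9 others. It rose against vehicle, with a change of 1.69 log2 units (0.25 SE, adjusted p = 0.000724 by edgeR), which held in every alternative run, and against control by 0.88 log2 units (0.24 SE, adjusted p = 0.0267 by edgeR). The control call was lost without control 2 or 3 or knockout 2 or 3 and in a fit of these 2 groups alone (adjusted p up to 0.125). Tmem119, a membrane protein of osteoblasts and microglia, ranged only from 91.3 to 108 CPM and passed in no comparison. Scin, scinderin, which severs actin filaments, had 5, 0 and 1 counts in the knockout libraries, 10, 0 and 40 in AzadC, 4, 21 and 5 in vehicle and 144, 372 and 45 in control. It reached the filter's level in 6 libraries, the 3 controls and 3 of AzadC and vehicle, and in no knockout library. Control 2 held most of the control reads, and every control library held more than any other library. The change was -6.06 log2 units (1.09 SE, adjusted p = 0.00261 by edgeR) in knockout against control (-5.03 without control 2, -7.76 without knockout 1) and -4.14 log2 units (0.89 SE, adjusted p = 0.025 by edgeR) in vehicle against control (-3.12 without control 2, -4.96 without vehicle 2). The second was lost without control 2, vehicle 1 or vehicle 3 (up to 0.112).

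The promoters of 4 members that stand at the ends of these patterns are shown, since methylation acts at CpG sites: Ibsp and Scin, with reads chiefly in control; Kazald1, highest in the knockout; and Bglap, near 0 throughout. Each is the 250 bases before a transcription start (RefSeq, GRCm38.p6), written 5′ to 3′ along the gene with each CpG in capitals: Ibsp at chr5:104299037-104299286 on the plus strand, Scin at chr12:40134229-40134478 on the minus strand, Kazald1 at chr19:45074991-45075240 on the plus strand (the first of 2 starts) and Bglap at chr3:88384467-88384716 on the minus strand.
Ibsp: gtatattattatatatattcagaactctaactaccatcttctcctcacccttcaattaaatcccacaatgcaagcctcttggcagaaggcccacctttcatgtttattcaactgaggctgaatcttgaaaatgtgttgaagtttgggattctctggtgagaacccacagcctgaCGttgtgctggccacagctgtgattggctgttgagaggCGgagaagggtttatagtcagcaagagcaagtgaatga
Scin: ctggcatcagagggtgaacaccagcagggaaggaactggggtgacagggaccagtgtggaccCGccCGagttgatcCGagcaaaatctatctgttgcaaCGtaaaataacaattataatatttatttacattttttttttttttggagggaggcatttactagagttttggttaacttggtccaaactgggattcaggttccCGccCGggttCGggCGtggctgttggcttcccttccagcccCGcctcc
Kazald1: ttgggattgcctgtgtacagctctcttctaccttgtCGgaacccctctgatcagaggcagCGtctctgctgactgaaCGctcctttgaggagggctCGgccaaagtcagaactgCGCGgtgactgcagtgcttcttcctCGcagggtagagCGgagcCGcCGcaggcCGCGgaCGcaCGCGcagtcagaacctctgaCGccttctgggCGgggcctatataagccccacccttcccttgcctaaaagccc
Bglap: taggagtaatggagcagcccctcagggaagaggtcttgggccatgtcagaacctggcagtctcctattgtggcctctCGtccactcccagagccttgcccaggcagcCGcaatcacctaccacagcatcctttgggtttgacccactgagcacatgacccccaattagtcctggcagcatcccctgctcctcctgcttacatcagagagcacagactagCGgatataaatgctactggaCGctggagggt
They hold 2 CpG in Ibsp, 9 in Scin, 17 in Kazald1 and 4 in Bglap. RefSeq windows were at hand for 23 of the 34 members, 28 windows in all. Their median was 4 CpG, beside 6 over 32851 windows of all genes, and they ranged from 0 in Runx2 and Col3a1 to 34 in Phospho1. The core letters bound by Runx factors, TGTGGT or its reverse complement ACCACA, occurred in 7 of the 28 member windows (25.0%) and in 14.0% of all windows. It was found in the Bglap window and not in those of Ibsp, Scin and Kazald1. Both strands were searched, and a match is a string of letters and no measured binding. DNA methylation itself was not measured in these libraries.

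AzadC against vehicle gave no call among the members. By edgeR 0 of 29 passed in either direction, where 0.00577% of all tested genes (1 gene) rose and 0.00577% fell. At an unadjusted p below 0.05, 10 members were higher (3.89% of all tested genes) and 0 lower (2.49%). The median log2 change was 0.26, and for 7 members all AzadC libraries lay above all vehicle libraries (6.1% of all tested genes). Runx2 passed by DESeq2 (0.52, adjusted p = 0.0457), and Postn, Runx2 and Col8a1 when the count filter was dropped (0.91, 0.52 and 0.57, adjusted p = 0.000532, 0.00499 and 0.00362). Kazald1 in AzadC exceeded vehicle in every library with 0.83 log2 units (0.25 SE, adjusted p = 0.56 by edgeR), and Sp7 with 0.60 log2 units (0.26 SE, adjusted p = 0.772 by edgeR), neither past the threshold.

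Genes of the same pathways outside the 34 were read in 4 further lists. These lists too were chosen with earlier results of these data known, so their shares are a description. Of 29 tested regulators and signals of bone cells 11 fell and 2 rose against control (37.9% and 6.90% of the list), beside 6.43% and 7.83% of all tested genes, with a median of -0.45. Against vehicle 5 fell and 4 rose (17.2% and 13.8%), beside 4.13% and 6.7% of all tested genes (median -0.14). In vehicle against control 4 were lower and 1 higher (13.8% and 3.45%, beside 2.06% and 1.46%), with a median of -0.45 as well. Fgfr2, a receptor for fibroblast growth factors, had 106, 70.8 and 108 CPM in the knockout libraries, 165, 183 and 194 in AzadC, 236, 159 and 192 in vehicle and 197, 212 and 147 in control. It fell in both comparisons, with changes of -0.96 log2 units (0.18 SE, adjusted p = 0.00289 by edgeR) and -1.04 log2 units (0.18 SE, adjusted p = 0.00206 by edgeR). Msx2, a homeobox factor of skull growth, was lower against control (-2.56 log2 units, 0.40 SE, adjusted p = 0.00105 by edgeR), as were Twist1, a factor that restrains Runx2 (-0.76, adjusted p = 0.00319), and Tnfrsf11b, the decoy receptor osteoprotegerin (-1.44, 0.00454). Msx2 had 1.96, 1.92 and 3.56 CPM in the knockout libraries, 2.17, 3.60 and 3.95 in vehicle and 9.66, 22.9 and 10.8 in control. By edgeR Msx2 was also lower in vehicle than in control. Bmp4, a bone-inducing ligand, rose against vehicle, with a change of 0.69 log2 units (0.12 SE, adjusted p = 0.00219 by edgeR), while Zbtb16 (-1.63, adjusted p = 0.00234) and Car2, carbonic anhydrase 2 (-1.08, 0.0086), fell there. By edgeR Car2 was higher in vehicle than in control, and all its knockout values lay within the range of the control values.

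Enzymes and chaperones of collagen processing gave 10 lower and 2 higher of 27 against control (37.0% and 7.41%, median -0.19). Among all tested genes 6.43% fell and 7.83% rose there, so the higher share was near that of all genes. Against vehicle 2 were lower and 3 higher (7.41% and 11.1%, beside 4.13% and 6.7% of all tested genes, median 0.07). In vehicle against control 2 were lower and 0 higher (beside 2.06% and 1.46% of all tested genes, median -0.25). Bmp1, the protease that removes the C-terminal propeptide of procollagen, had 304, 294 and 290.1 CPM in the knockout libraries, 389.8, 372 and 441 in AzadC, 375, 436 and 418 in vehicle and 453, 532 and 406 in control, lowest in the knockout libraries. It fell against control, with a change of -0.65 log2 units (0.10 SE, adjusted p = 0.000603 by edgeR), and against vehicle, with -0.47 log2 units (0.10 SE, adjusted p = 0.00634 by edgeR). The prolyl hydroxylase genes P3h3 (-0.63, adjusted p = 0.00154) and P4ha3 (-1.01, 0.00198) and the lysyl oxidase relative Loxl3 (-0.74, 0.00245) fell against control. Against vehicle, Sec24d, a coat protein of procollagen export, rose by 0.64 log2 units (0.12 SE, adjusted p = 0.00336 by edgeR), and the folding enzymes P4hb (0.32, adjusted p = 0.00891) and Ppib (0.24, 0.0334) rose with it. Neither P4hb nor Ppib was higher against control by edgeR. Ppib overlapped between knockout (323, 341 and 299 CPM) and control (301, 305 and 267 CPM). Sec24d overlapped between knockout (66.8, 73.3 and 60.9 CPM) and control (61.0, 70.9 and 62.2 CPM). In vehicle it had 43.0, 47.8 and 38.0 CPM, lower than in control by edgeR.

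Other collagens gave 2 lower of 17 against control (11.8%, beside 6.43% of all tested genes, median -0.33). Against vehicle 1 was lower and 1 higher (5.88% each, near the shares of all tested genes, median 0.14). More of them, 5 of 17, were lower in vehicle than in control (29.4%, beside 2.06% of all tested genes, median -0.03). Col23a1, a transmembrane collagen, had 137, 101 and 134 CPM in the knockout libraries and 219.6, 234 and 217 CPM in control, and its knockout libraries stood below the other 9. It fell in both comparisons, with changes of -0.85 log2 units (0.11 SE, adjusted p = 0.000337 by edgeR) and -0.98 log2 units (0.11 SE, adjusted p = 0.000115 by edgeR). Col16a1, a fibril-associated collagen, fell against control (-1.54 log2 units, 0.18 SE, adjusted p = 9.98e-05 by edgeR), and Col6a1, a chain of microfibrillar collagen VI, rose against vehicle (0.55 log2 units, 0.15 SE, adjusted p = 0.0281 by edgeR). Col16a1 had 32.6, 28.3 and 37.5 CPM in the knockout libraries, 39.2, 60.9 and 47.1 in vehicle and 99.5, 104 and 82.2 in control. By edgeR Col16a1 was also lower in vehicle than in control. Col6a1 had 175, 154 and 154 CPM in the knockout libraries, 84.5, 131 and 112 in vehicle and 231, 214 and 191 in control. By edgeR it was lower in vehicle than in control. Of 31 other fibrous matrix proteins 12 fell and 1 rose against control (38.7% and 3.23%, beside 6.43% and 7.83% of all tested genes, median -0.39). Against vehicle 2 fell and 4 rose (6.45% and 12.9%, beside 4.13% and 6.7%, median -0.08). In vehicle against control 6 were lower and 1 higher (19.4% and 3.23%, beside 2.06% and 1.46%, median -0.43). Fbln2, fibulin 2 of elastic and basement membranes, fell in both, with changes of -1.03 log2 units (0.11 SE, adjusted p = 5.29e-05 by edgeR) and -0.42 log2 units (0.11 SE, adjusted p = 0.0261 by edgeR). Thbs2, a thrombospondin, fell against control, with a change of -1.67 log2 units (0.24 SE, adjusted p = 0.000447 by edgeR), and Efemp2 and Ltbp3 changed by -0.39 and -0.76 (edgeR adjusted p = 0.00568 and 0.00594). By edgeR Fbln2 and Thbs2 were also lower in vehicle than in control. Nid1, nidogen 1 of basement membranes, and Tnc, tenascin C, rose against vehicle by 0.56 and 0.94 (edgeR adjusted p = 0.00116 and 0.0123), and Smoc1 fell (-0.70, 0.0203). Tnc overlapped between knockout (296 to 376 CPM) and control (235 to 316 CPM). Smoc1 had 83.4, 74.9 and 67.3 CPM in the knockout libraries, 136, 121 and 110 in vehicle and 68.3, 53.9 and 70.5 in control. By edgeR Smoc1 was higher in vehicle than in control.

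Several lists of markers of other cell types differed between the groups. These lists were also chosen with earlier results of these data known. Cartilage markers were lower in the knockout: 12 of 12 tested fell against control and 5 against vehicle. In vehicle against control 3 were lower and 0 higher (median log2 change -1.3), and the 15 summed to 386 to 643 CPM in the knockout libraries, 1111 to 1538 in AzadC, 1521 to 1687 in vehicle and 1031 to 3137 in control. Of the control libraries, control 2 had the highest cartilage sum and control 3 the lowest. Control 2 was also the highest control library for 20 of 29 tested members, Ibsp and Scin among them. Control 3 was the highest for 5, among them Bmp3, Postn and Col8a1. Skeletal muscle markers ran the other way, with 9 of 12 higher against control and 0 against vehicle (0 lower, median log2 change 1.64), and summed to 193 to 1139.6 CPM in the knockout libraries, 44.6 to 193 in AzadC, 49.6 to 460.3 in vehicle and 7.64 to 114 in control. Macrophage markers rose in both knockout comparisons, 12 of 12 in each. Of 7 epithelial markers 0 passed in knockout against control, 1 rose against vehicle and 2 were lower in vehicle than in control. Of 5 endothelial markers 0 passed in any comparison. Among all tested genes 6.43% fell and 7.83% rose against control, and 4.13% fell and 6.7% rose against vehicle. In vehicle against control 2.06% were lower and 1.46% higher. The part of these cell types in the members' changes was not tested. The members summed to 7256 to 7736 CPM in the knockout libraries, 6824 to 8298 in AzadC, 5582 to 7372 in vehicle and 9377 to 10927 in control, so the control libraries stood above all others in this sum, which Col1a2, Col3a1 and Serpinh1 dominate.

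**Figure D4:**
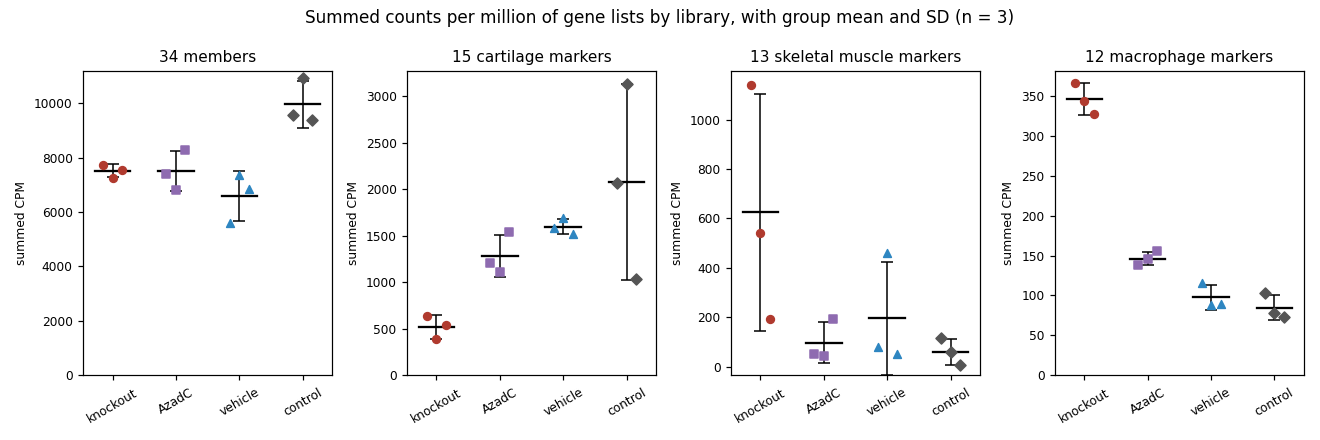
Summed CPM of the 34 members and of cartilage, skeletal muscle and macrophage markers in each library, with group mean and SD (n = 3). The members' sum is highest in the 3 control libraries, the cartilage sum lowest and the macrophage sum highest in the 3 knockout libraries, and the muscle sum varies widely within groups.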

How the data were processed

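Sequencing libraries were made with a NuGen mRNA kit from 12 pools of palatal shelf RNA, per the labels' protocols. The deposited values are RSEM expected counts and TPM per gene, per the file headers. Tools named in the submitters' processing notes are Trim Galore, FastQC, DESeq2, RSEM 1.3.1 and STAR 2.7.0, with build mm10. RSEM splits reads that match several genes, so near-identical genes are uncertain one by one.

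For testing, each expected count was rounded, and edgeR 4.0.16 (R 4.3.3; filterByExpr, TMM, glmQLFit, glmQLFTest) was fitted over all 12 libraries with 1 mean per group. P-values were adjusted by Benjamini and Hochberg's method over the 17335 genes kept, and a call needed an adjusted p below 0.05. The SE is the absolute log2 change over the square root of F. Members pass the filter through any group, so counts over the 29 tested do not describe all 34. Alternatives were DESeq2 1.42.0, RLE scaling, no filter, a fit of 2 groups, a replicate block, and each library left out. The script was tested on simulated data. Over the 4 comparisons it recovered 37.3% to 59.7% of 1.5-fold changes and 71.6% to 85.1% of 2-fold changes. False calls made up 2.80% to 6.76% of its calls there. No 2 replicates agreed within sampling noise. Gene coordinates came from GENCODE M21 (mm10).

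All 34 members are named, as are up to 4 genes of each further list with the smallest adjusted p in each knockout comparison. Members and lists were chosen with earlier results of these data known, and the counts against 6 and 9 wild type libraries after values were seen.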

Additional observations from a re-analysis of the deposited data

How the results depend on the processing

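Of 40 member calls over the comparisons none reversed under any alternative, and 23 were kept in all of them: 11 of 16 in knockout against control, 3 of 8 in knockout against vehicle and 9 of 16 in vehicle against control. Ibsp is counted among the 11 and among the 9. It passed the count filter through control alone, so its being kept is no support. In knockout against control the count of lower members ran from 11 to 18 and stayed within 1.5 times of 15; the count of higher members, 1, was 0 in a fit of these 2 groups alone and 0 to 1 when a library was left out. In knockout against vehicle the 6 higher members became 10 without the filter and 2 to 6 when a library was left out, and the 2 lower ones 1 with the replicate number as a block and 1 when any library was left out. In AzadC against vehicle the 0 higher members became 1 with DESeq2 and 3 without the filter. In vehicle against control the 16 lower members became 9 to 16 when a library was left out (9 without control 2, 10 without vehicle 1, 9 without vehicle 3) and 21 without the filter. The cause was not tested, except that leaving out a library leaves fewer samples. Same-numbered libraries of knockout and control deviated from their group means with correlations of 0.08 to 0.28 over genes, and in the other comparisons with -0.10 to 0.15, which misses the level set for pairing (over 0.1 in every pair); whether same-numbered libraries share a litter or batch was not tested. With the block, 14 members were lower in knockout against control and 14 in vehicle against control, and 5 higher in knockout against vehicle. Depth limits Bglap, Bglap2, Dmp1, Phospho1, Mepe, Ibsp and Scin, which had few or 0 reads in several groups.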

Other observations

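The chains of type I collagen were also compared as a ratio within each library, which library scaling does not touch. The ratio of Col1a1 to Col1a2 in TPM was 0.270, 0.284 and 0.274 in the knockout libraries, 0.189, 0.167 and 0.214 in AzadC, 0.139, 0.194 and 0.170 in vehicle and 0.267, 0.269 and 0.245 in control. The knockout and control ratios lay above all AzadC and vehicle ratios. The difference of means was 0.11 in knockout against vehicle, -0.09 in vehicle against control, 0.02 in knockout against control and 0.02 in AzadC against vehicle. Two-sided exact permutation tests gave p = 0.1 for the first 3, the smallest that 3 against 3 libraries allow, and p = 0.5 for the last; over the 12 comparisons of 3 such ratios the adjusted p was 0.171 for the first 3 and 0.6 for the last. These ratios were chosen after the values were seen. The corresponding ratio of Col5a1 to Col5a2 was 1.20, 1.01 and 0.985 in the knockout libraries, 1.03, 1.02 and 1.13 in AzadC, 1.10, 1.09 and 1.06 in vehicle and 1.04, 0.946 and 0.747 in control. The knockout values overlapped the vehicle and the control values, while every vehicle value lay above every control value (exact permutation p = 0.1, adjusted 0.171). The remaining ratio, Col1a1 to its chaperone Serpinh1, was 0.155, 0.154 and 0.174 in the knockout libraries, 0.213, 0.198 and 0.217 in AzadC, 0.104, 0.181 and 0.143 in vehicle and 0.186, 0.259 and 0.224 in control. Here all knockout and all vehicle values lay below all control values, and all AzadC values above all vehicle values (exact permutation p = 0.1 and adjusted 0.171 for each).

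Genes of the bone-resorbing osteoclast and of tooth matrix were read beside the members. Of 8 osteoclast markers 3 passed the filter. Ctsk, cathepsin K, which fibroblasts also make, had 34.5 to 38.1 CPM in the knockout libraries, 17.1 to 20.8 in AzadC, 10.9 to 18.7 in vehicle and 21.4 to 33.0 in control. It was higher in the knockout than in vehicle and lower in vehicle than in control (edgeR), and did not pass in knockout against control. Acp5, tartrate-resistant acid phosphatase, had 2.71 to 3.84 CPM in the knockout libraries, 3.63 to 6.75 in AzadC, 4.72 to 9.16 in vehicle and 2.47 to 3.45 in control. It was lower in the knockout than in vehicle and higher in vehicle than in control, and the knockout and control values overlapped. Mmp9, a matrix protease, was lower in vehicle than in control, with 0.557 to 2.44 CPM in vehicle and at least 4.96 CPM in each control library, while the knockout libraries had 2.12 to 3.61 CPM. Dcstamp, needed for osteoclast fusion, had 0 counts in every library, as did the tooth matrix genes Dspp, Amelx and Enam. Ambn, the remaining tooth gene on the list, reached 3.65 CPM in control 3 and stayed at or under 0.415 CPM in the other 11 libraries.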
